A study of Homo sapiens with 9 samples.

Results

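Integrins and laminins are the receptors and the ligands through which epithelial and carcinoma cells hold on to the basement membrane. The genes described here are the rows whose symbol names an integrin alpha chain (ITGA), an integrin beta chain (ITGB) or a laminin chain (LAMA, LAMB or LAMC). This rule found 38 of the 26485 listed genes: 18 integrin alpha, 8 integrin beta and 12 laminin genes. The rule used symbols only and no measured value. The 9 libraries hold RNA of MDA-MB-231, an established line of human breast cancer cells that lack hormone receptors and HER2 amplification (triple-negative) and have a mesenchymal character. Cells of 3 libraries stably expressed a non-specific (NS) shRNA, those of 3 expressed ASAH1 shRNA #1 and those of 3 expressed ASAH1 shRNA #2, so that the controls also carried a hairpin. ASAH1 encodes acid ceramidase, the lysosomal enzyme that splits ceramide into sphingosine and a fatty acid. The labels call the 3 libraries of a group biological replicates without saying how they were separated, so p-values measure the spread between these libraries. The RNA data described here rest on 1 cell line and a pair of ASAH1 hairpins.

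Reads on genes ranged from 30989598 to 34867548 per library with NS shRNA, from 23806003 to 39791698 with ASAH1 shRNA #1 and from 35653318 to 49659106 with ASAH1 shRNA #2. The targeted gene fell with both hairpins. ASAH1 went from a mean normalized count of 4489 with NS shRNA to 1327 with shRNA #1, and from 4852 to 783 in the table of shRNA #2. The 2 tables were scaled separately, so the same NS shRNA libraries carry different normalized counts in each. Most markers of other cell types were sparse: the leukocyte genes PTPRC, CD3E and CD2 had at most 8 reads in any library, the fibroblast genes DCN and THY1 at most 3 and PDGFRA at most 6, and the endothelial genes CDH5, TEK and VWF at most 3, 12 and 14. The leukocyte gene CD14, the fibroblast genes COL1A1 and LUM and the endothelial genes PECAM1 and KDR were read in every group. Their mean normalized counts with NS shRNA were 969, 697, 136, 96.0 and 332. The mesenchymal genes VIM, CD44, AXL, ZEB1 and CAV1 had mean normalized counts of 67718, 27080, 33576, 1866 and 37982 with NS shRNA. Of the hormone receptor and luminal genes, ESR1, PGR and FOXA1 had at most 6 reads, whereas KRT8, KRT18, EPCAM and GATA3 had means of 13188, 12212, 750 and 729 with NS shRNA. The simple epithelial keratin KRT8 fell to a mean of 4669 with shRNA #1, and from 14255 to 8388 in the table of shRNA #2 (adjusted p = 8.3e-09 and 4.3e-07, limma), and its partner KRT18 had log2 fold changes of -0.78 and 0.15 (adjusted p = 1.6e-05 and 0.146, limma).

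Each integrin is a pair of transmembrane chains, 1 alpha and 1 beta, whose outer heads bind matrix proteins and whose beta tails bind talin and kindlin. The alpha chain largely sets the ligand: some pairs bind laminin, some collagen, and some the RGD motif of fibronectin and vitronectin. Each laminin is a trimer of 1 alpha, 1 beta and 1 gamma chain. The laminin that contains LAMA3 and LAMB3 anchors epithelial cells through hemidesmosomes, where ITGA6 pairs with ITGB4.

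The transcripts moved in different directions within the families. LAMB3, ITGA3 and ITGA5 rose with both hairpins, and ITGB4, ITGB5, ITGB3, LAMA4 and LAMA5 fell with both. No integrin beta gene passed as higher with either hairpin, although ITGB1 and ITGB2 did so with shRNA #2 under some alternatives given below. Of the 28 genes with enough reads for a test with shRNA #1, 7 were higher than with NS shRNA and 17 were lower at an adjusted p below 0.05 (limma). Across all genes tested in that comparison 32.8% were higher, 33.3% were lower and 66.1% passed in either direction. In the comparison with shRNA #2, 27 were tested, 7 were higher and 14 were lower, where the figures over all genes were 33.5% higher, 33.4% lower and 66.9% in either direction. In the median the members had a log2 fold change of -0.24 in the first comparison and -0.16 in the second, beside medians of 0.001 and 0.01 over all genes tested. The median absolute size was 0.82 in the first comparison and 0.64 in the second, beside 0.37 and 0.40 over all genes tested. Falls were thus counted more often among the members than over all genes, and the median size of a change was larger; neither difference was tested. The RNA came from bulk cultures, in which fewer cells expressing a gene and less of its RNA per cell cannot be told apart.

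**Figure D1:**
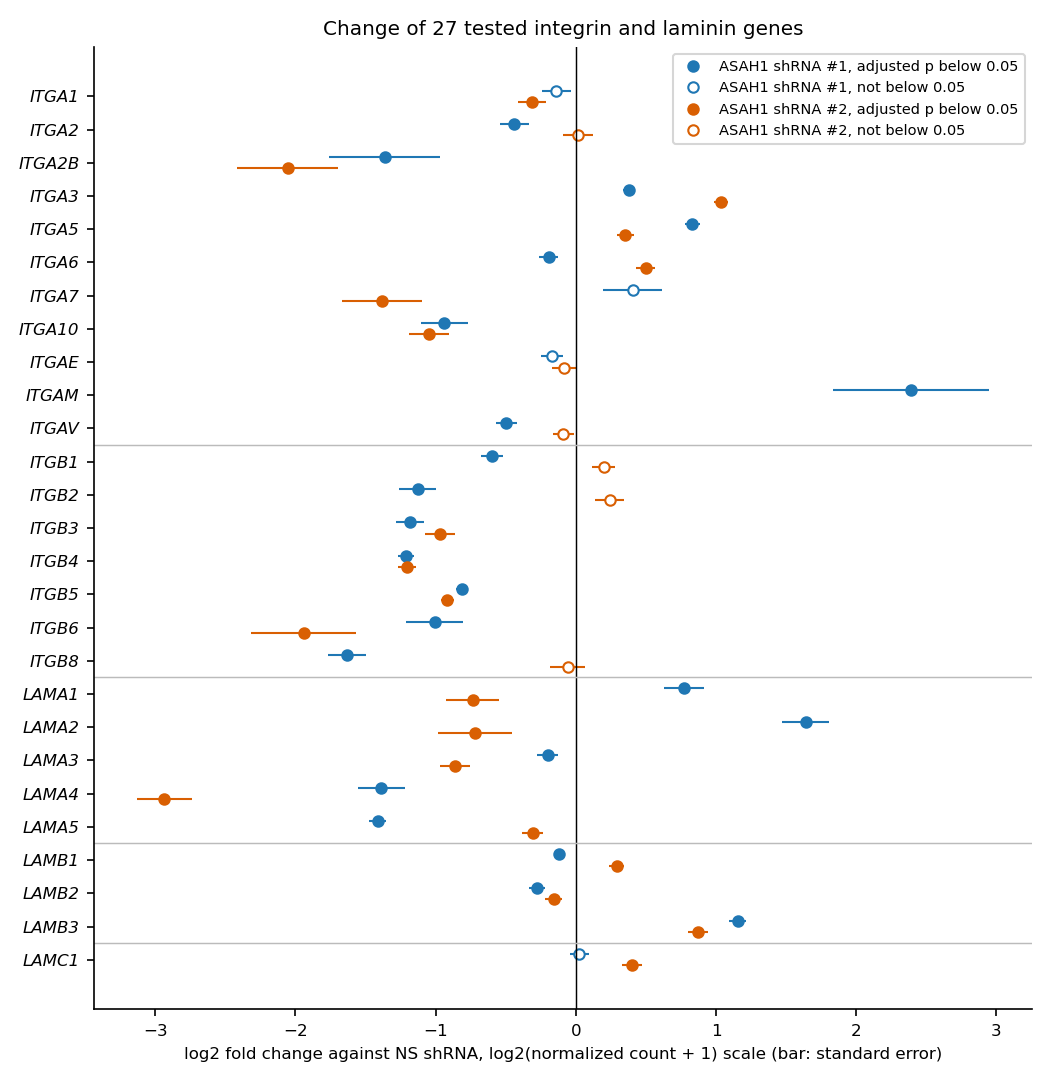
Log2 fold change of 27 tested integrin and laminin genes against NS shRNA on the log2(normalized count + 1) scale (horizontal axis) for ASAH1 shRNA #1 (blue) and ASAH1 shRNA #2 (orange), with filled points for an adjusted p below 0.05 from limma and bars for the standard error. LAMB3, ITGA3 and ITGA5 lie to the right of 0 with both hairpins, and every filled point among the integrin beta genes lies to the left; ITGAM was tested with shRNA #1 only.

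Levels of different genes were compared per length, as reads per kilobase of the Ensembl canonical transcript (MANE Select) per 1000000 reads on genes. This scale lies 0.13 log2 units lower for shRNA #2 against NS shRNA than the normalized counts do, and 0.02 higher for shRNA #1, so changes are given below on the normalized counts and levels serve for comparisons between genes. In NS shRNA cells ITGA3 led the alpha chains at 277 ± 7.99 (SD, n = 3), followed by ITGA6 at 78.1 ± 6.93, ITGA5 at 36.7 ± 2.19, ITGAV at 29.6 ± 3.16 and ITGA2 at 25.1 ± 3.52. The last 2 of these lay within their spread of each other. Among the beta chains ITGB1, the common partner of most matrix-binding alpha chains, stood at 242 ± 28.6 (SD, n = 3), ITGB5 at 79.5 ± 1.67 and ITGB4 at 55.1 ± 3.09. No other beta chain passed 5 on this scale. LAMA5 led the laminin alpha chains at 38.3 ± 2.66 (SD, n = 3) before LAMA3 at 7.40 ± 0.517, LAMB3 led the beta chains at 177 ± 10.4 before LAMB2 at 70.7 ± 4.16 and LAMB1 at 45.5 ± 0.607, and the gamma chain LAMC1 stood at 51.3 ± 3.98. The control cells held transcripts of laminin-binding receptors and of laminin chains at the same time.

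**Figure D2:**
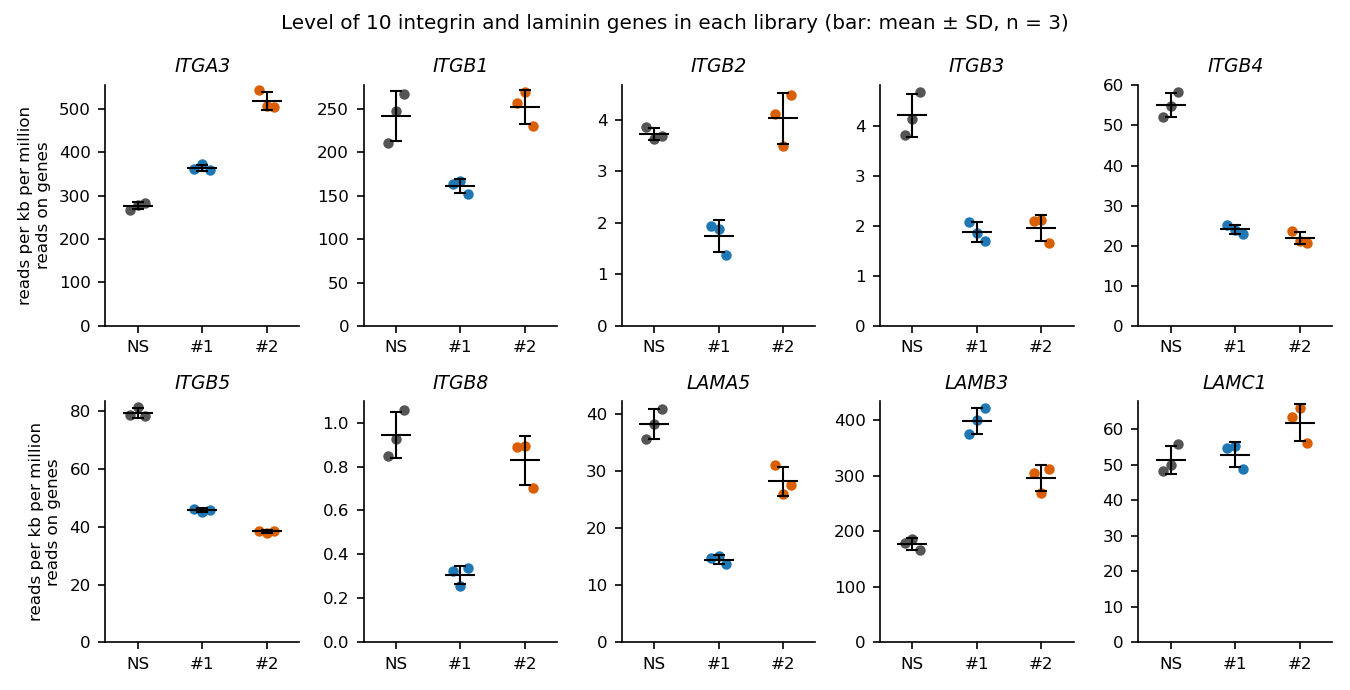
Level of 10 integrin and laminin genes (vertical axis, reads per kilobase per 1000000 reads on genes, from 0) in each of the 9 libraries, with the mean and SD of the 3 libraries in black. All 3 libraries of each hairpin lie above the NS shRNA libraries for ITGA3 and LAMB3 and below them for ITGB3, ITGB4, ITGB5 and LAMA5, while ITGB1, ITGB2 and ITGB8 are low with shRNA #1 only.

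Among the laminins, LAMB3 rose with both hairpins while LAMA3, the alpha chain with which it assembles, did not. LAMB3 (ENSG00000196878.15, chromosome 1 of hg38 from 209614870 to 209652425, minus strand) encodes the beta chain of that trimer. Its normalized counts were 23204, 24241 and 21463 with NS shRNA and 47996, 51301 and 54113 with shRNA #1. In the other table they were 25038, 26314 and 23142 with NS shRNA and 47169, 41003 and 48272 with shRNA #2. The hairpin libraries were high and did not overlap the NS shRNA libraries in either table. Against NS shRNA this was 1.16 on the log2 scale for shRNA #1 (standard error 0.06, adjusted p = 3.2e-07, limma) and 0.87 for shRNA #2 (standard error 0.07, adjusted p = 2.4e-06, limma).

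LAMC1, the gamma chain of most basement membrane laminins, had normalized counts of 12425, 12764 and 14250 with NS shRNA and 13783, 14005 and 12359 with shRNA #1. These groups overlapped, and the log2 fold change was 0.03 (adjusted p = 0.745, limma). In the table of shRNA #2, LAMC1 had 13407, 13855 and 15364 with NS shRNA and 19351, 19895 and 17124 with the hairpin, and it rose by 0.40 on the log2 scale (standard error 0.07, adjusted p = 0.000537, limma).

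LAMA3 (chromosome 18 from 23689453 to 23956222, plus strand) went from a mean of 2753 ± 178 (SD, n = 3) with NS shRNA to 1527 ± 242 with shRNA #2, or -0.86 on the log2 scale (standard error 0.11, adjusted p = 4.4e-05, limma). With shRNA #1 the log2 fold change was -0.20 with an adjusted p of 0.0414 (limma), a call lost in 7 alternative fits. Among these, the adjusted p was 0.0745 and 0.105 without the second and the third NS shRNA library, and 0.0578 and 0.133 without the first and the third shRNA #1 library. The promoter regions of LAMB3 and LAMA3 are shown because these partner chains parted. Both are the 250 bases before a RefSeq transcript start (GRCh38.p14), 5′ to 3′ on the gene's strand, at chr1:209652426-209652675 on the minus strand for LAMB3 and chr18:23872770-23873019 on the plus strand for LAMA3. Capitals mark matches on either strand to TGANTCA, the sequence bound by AP-1 factors, and to GGGCGG, the GC box bound by SP factors (CCGCCC where it lies on the other strand).
LAMB3: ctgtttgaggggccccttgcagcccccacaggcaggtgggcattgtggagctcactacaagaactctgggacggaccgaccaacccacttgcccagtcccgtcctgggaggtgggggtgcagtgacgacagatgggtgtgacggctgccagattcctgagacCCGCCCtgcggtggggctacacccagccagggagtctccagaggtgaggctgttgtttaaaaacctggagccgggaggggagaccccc
LAMA3: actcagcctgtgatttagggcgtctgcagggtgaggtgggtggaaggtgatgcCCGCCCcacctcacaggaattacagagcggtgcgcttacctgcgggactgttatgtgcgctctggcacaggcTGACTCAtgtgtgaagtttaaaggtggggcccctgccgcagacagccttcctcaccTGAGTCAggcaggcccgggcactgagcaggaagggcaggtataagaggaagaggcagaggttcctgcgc
The LAMB3 window held 1 GC box, whose first base lies 88 bases before the start, and 0 matches to TGANTCA. RefSeq lists 3 starts for LAMB3, and the window of the start 1051 bases inside the gene held 1 match to TGANTCA. The LAMA3 window held 2 matches to TGANTCA, at 125 and 69 bases before the start, and 1 GC box at 197 bases. Of all 35116 windows in the table, 6.57% held TGANTCA and 42.6% held GGGCGG in these 250 bases. A match describes letters only, and no match says only that these letters are not in the window. The LAMA3 window belongs to an inner start, 183567 bases from the start of its canonical transcript, and the counts per gene do not separate the transcripts. With the length of the longest transcript from the inner start, 5618 bases in place of 10651, the LAMA3 level in NS shRNA cells would be 14.03 rather than 7.40 on the scale used here.

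The alpha chains of the other laminins fell or moved in opposite directions. LAMA5 (ENSG00000130702.15, chromosome 20 from 62307955 to 62367312, minus strand), the most widely expressed laminin alpha chain of adult epithelium, had 13205, 14171 and 15062 normalized counts with NS shRNA and 5354, 5530 and 5029 with shRNA #1. Its counts were 14248, 15383 and 16240 with NS shRNA and 13653, 11341 and 12155 with shRNA #2. Both hairpins lay below NS shRNA without overlap, shRNA #1 by far more. Expressed as log2 fold change, shRNA #1 gave -1.41 (standard error 0.06, adjusted p = 8.5e-08, limma) and shRNA #2 gave -0.31 (standard error 0.07, adjusted p = 0.00407, limma). LAMA4, a chain of vascular and mesenchymal basement membranes, also fell, from a mean normalized count of 113 ± 13.1 (SD, n = 3) to 42.9 ± 6.90 with shRNA #1 and from 122 ± 14.5 to 15.2 ± 2.02 with shRNA #2. These are log2 fold changes of -1.39 and -2.93, with adjusted p of 6.2e-05 and 5.8e-07 (limma), and the lowest NS shRNA library stayed above every hairpin library. Of the fibroblast and endothelial markers that could be tested, LUM had log2 fold changes of -0.43 and -1.76, COL1A1 of 0.18 and -0.24, PECAM1 of -0.59 and -0.91 and KDR of 0.13 and -1.06 with shRNA #1 and shRNA #2; their part in the LAMA4 values was not tested.

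LAMA1 and LAMA2 had opposite signs with the hairpins, at low levels. LAMA2, the laminin alpha chain of muscle, had normalized counts of 35.6, 33.4 and 48.0 with NS shRNA and 120, 122 and 124 with shRNA #1. In the other table it had 38.4, 36.2 and 51.8 with NS shRNA and 23.7, 19.4 and 33.4 with shRNA #2. The rise with shRNA #1 was 1.64 on the log2 scale (standard error 0.17, adjusted p = 2.1e-05, limma). The lower value with shRNA #2, a log2 fold change of -0.72 with an adjusted p of 0.0320 (limma), was lost in 6 alternative fits. Its adjusted p was 0.0529 and 0.117 without the first and the third NS shRNA library, and 0.0794 and 0.103 without the first and the second shRNA #2 library. LAMA1, the chain of early embryonic basement membranes, rose by 0.77 with shRNA #1 (adjusted p = 0.00110, limma) and fell by 0.74 with shRNA #2 (adjusted p = 0.00549, limma), with means between 37.6 and 100.4 normalized counts. The beta chains LAMB1 and LAMB2, which belong to most laminins outside the hemidesmosome, had small fold changes. LAMB2 had log2 fold changes of -0.28 with shRNA #1 (adjusted p = 0.00148, limma) and -0.16 with shRNA #2 (adjusted p = 0.0411, limma, lost in 7 alternative fits). Without the second or the third NS shRNA library, or the second or the third shRNA #2 library, its adjusted p with shRNA #2 ran from 0.0891 to 0.160. LAMB1 rose by 0.29 with shRNA #2 (adjusted p = 0.000722, limma), and its log2 fold change of -0.12 with shRNA #1 (adjusted p = 0.0279, limma) was lost in 7 alternative fits. Without the second or the third NS shRNA library, or any 1 of the shRNA #1 libraries, that adjusted p ran from 0.0604 to 0.102.

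The make-up of the laminin transcripts shifted accordingly. LAMB3 made up 60.4% ± 1.81 (SD, n = 3) of the laminin beta chain level per kilobase with NS shRNA, 79.7% ± 1.02 with shRNA #1 and 73.1% ± 1.86 with shRNA #2. The summed level of the alpha chains was 46.5 ± 3.19 with NS shRNA, 21.98 ± 1.33 with shRNA #1 and 32.2 ± 2.73 with shRNA #2, whereas that of the beta chains was 293 ± 11.1, 500.5 ± 23.2 and 404 ± 23.9. In each hairpin the beta chains thus stood higher against the alpha chains than in the control. The ratio of LAMB3 to LAMA3 within a library was 24.1 ± 2.83 (SD, n = 3) with NS shRNA, 61.6 ± 8.85 with shRNA #1 and 81.0 ± 19.4 with shRNA #2. It was higher in every hairpin library than in any NS shRNA library. It is a ratio of RNA, not of assembled trimer, and was not tested. The shorter LAMA3 length given above would raise the LAMA3 level by a factor of 1.896 in every library. The ratio would then be lower in all groups, and the summed alpha chain level higher.

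**Figure D3:**
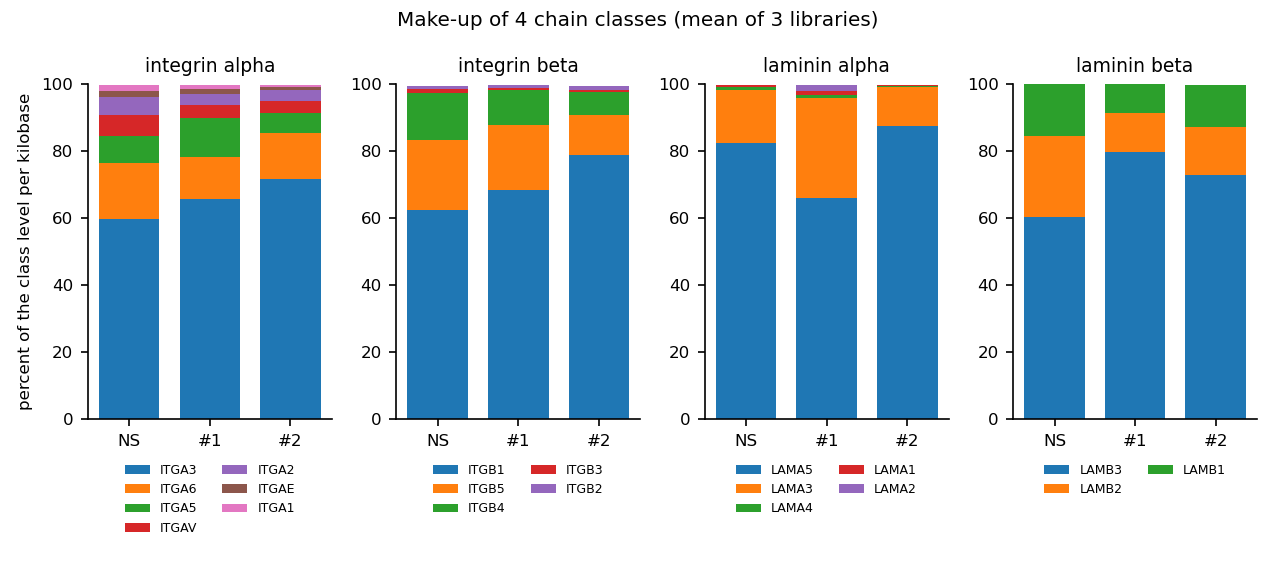
Share of each gene in the summed level per kilobase of the integrin alpha, integrin beta, laminin alpha and laminin beta chains (vertical axis, percent), as the mean of 3 libraries for NS shRNA (NS), ASAH1 shRNA #1 (#1) and ASAH1 shRNA #2 (#2), with genes never above about 0.5% left out. LAMB3 goes from 60.4% to 79.7% of the laminin beta chains with shRNA #1, and ITGA3 is the largest part of the integrin alpha chains in all 3 groups.

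Among the laminin receptors, the alpha chain ITGA3 rose and the beta chain ITGB4 fell with both hairpins. ITGA3 (ENSG00000005884.18, chromosome 17 from 50055968 to 50090481, plus strand) pairs with ITGB1 and binds laminins that contain LAMA3 or LAMA5. Its normalized counts were 42449, 44130 and 44544 with NS shRNA and 56233, 58161 and 56302 with shRNA #1. In the other table they were 45804, 47903 and 48027 with NS shRNA and 101914, 94154 and 94942 with shRNA #2. The groups did not overlap in either table, and the rise was 2.05-fold with shRNA #2. Against NS shRNA this was 0.38 on the log2 scale for shRNA #1 (standard error 0.04, adjusted p = 3.3e-05, limma) and 1.04 for shRNA #2 (standard error 0.05, adjusted p = 8.9e-08, limma).

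ITGB4 (ENSG00000132470.14, chromosome 17 from 75721328 to 75757818, plus strand) carries the long cytoplasmic tail that links hemidesmosomes to keratin filaments. It had 9977, 10437 and 11070 normalized counts with NS shRNA and 4747, 4533 and 4322 with shRNA #1. With shRNA #2 it had 5343, 4743 and 4725, where the NS shRNA libraries had 10766, 11329 and 11936. All 6 hairpin libraries were far below the NS shRNA libraries. Log2 fold changes of -1.21 for shRNA #1 (standard error 0.05, adjusted p = 1.4e-07, limma) and -1.20 for shRNA #2 (standard error 0.06, adjusted p = 1.4e-07, limma) were fitted. ITGA6, the alpha partner of ITGB4 and also of ITGB1, rose by 0.50 with shRNA #2 (standard error 0.07, adjusted p = 7.9e-05, limma). With shRNA #1 its log2 fold change was -0.19 (adjusted p = 0.0262, limma), lost in 5 alternative fits. The adjusted p was 0.0793 and 0.069 without the second and the third NS shRNA library and 0.0761 without the third shRNA #1 library. The ratio of ITGB4 to ITGA6 per kilobase was 0.707 ± 0.0254 (SD, n = 3) with NS shRNA, 0.349 ± 0.0111 with shRNA #1 and 0.218 ± 0.0121 with shRNA #2. ITGA7, a laminin receptor of muscle, had means of at most 46.2 normalized counts and fell by 1.38 with shRNA #2 (adjusted p = 0.00148, limma); with shRNA #1 the log2 fold change was 0.41 (adjusted p = 0.12, limma), or 0.57 without its first library (adjusted p = 0.0476).

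ITGB1 (ENSG00000150093.20, chromosome 10 from 32887273 to 33005792, minus strand) is the shared partner of the alpha chains that bind laminin, collagen and fibronectin. Its normalized counts were 25566, 29960 and 32127 with NS shRNA and 19502, 19981 and 18218 with shRNA #1. In the other table they were 27587, 32521 and 34639 with NS shRNA and 36952, 38275 and 33195 with shRNA #2. The shRNA #1 libraries lay below all NS shRNA libraries, and those of shRNA #2 overlapped them. Expressed as log2 fold change, shRNA #1 gave -0.60 (standard error 0.08, adjusted p = 0.000114, limma) and shRNA #2 gave 0.20 (adjusted p = 0.0594, limma). Without the third NS shRNA library the latter became 0.27 with an adjusted p of 0.0100, and without the third shRNA #2 library 0.26 with 0.0194 (limma). In 1 fit of all 9 libraries it was 0.20 with 0.0469. The ratio of ITGA3 to ITGB1 per kilobase was 1.15 ± 0.107 (SD, n = 3) with NS shRNA, 2.26 ± 0.0859 with shRNA #1 and 2.06 ± 0.159 with shRNA #2, higher in every hairpin library than in any NS shRNA library.

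**Figure D4:**
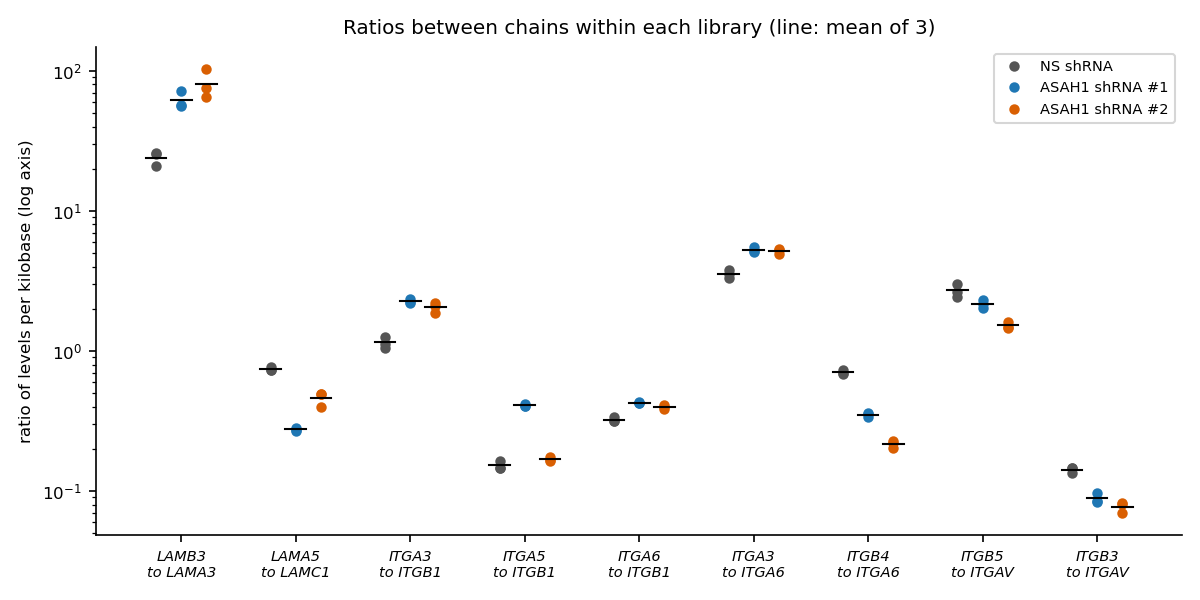
Ratio of the levels per kilobase of 9 pairs of chains (vertical log axis) within each library of NS shRNA (grey), ASAH1 shRNA #1 (blue) and ASAH1 shRNA #2 (orange), with a line at the mean of 3. LAMB3 against LAMA3 and ITGA3 against ITGB1 are higher with both hairpins than with NS shRNA, and ITGB4 against ITGA6 and LAMA5 against LAMC1 are lower with both.

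The beta chains that pair with ITGAV in receptors for vitronectin, fibronectin and latent TGF-beta fell, ITGB8 with shRNA #1 only. ITGB5, which pairs with ITGAV, fell by 0.81 with shRNA #1 (standard error 0.04, adjusted p = 2.8e-07, limma) and by 0.92 with shRNA #2 (standard error 0.05, adjusted p = 1.3e-07, limma), from means of 11399 ± 251 and 12322 ± 316 (SD, n = 3) to 6482 ± 85.6 and 6532 ± 108. The promoter region of ITGB5 is shown as that of the member with the highest level per length among those that fell with both hairpins. It is the 250 bases before the start of the canonical transcript at chr3:124887366-124887615, minus strand (RefSeq, GRCh38.p14), with capitals as above.
ITGB5: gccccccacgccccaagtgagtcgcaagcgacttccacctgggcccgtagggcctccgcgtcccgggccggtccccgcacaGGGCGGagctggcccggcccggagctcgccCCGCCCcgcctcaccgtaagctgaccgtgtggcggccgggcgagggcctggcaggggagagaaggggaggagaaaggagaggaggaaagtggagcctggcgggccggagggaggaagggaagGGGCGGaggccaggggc
This window held 3 GC boxes, at 169, 139 and 17 bases before the start, and 0 matches to TGANTCA. RefSeq lists further starts for ITGB5, and the counts per gene do not separate them. The window of the outer start, 14053 bases upstream, held 2 GC boxes, and that of the start at 124887684 held 0. Neither held TGANTCA. Of the 38 genes, 26 had an entry among the RefSeq windows, with 33 windows in all. TGANTCA was found in 2 of these, 1 of LAMB3 and 1 of LAMA3, and GGGCGG in 17.

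ITGB3 (ENSG00000259207.10, chromosome 17 from 47253827 to 47313743, plus strand) forms the vitronectin receptor with ITGAV. It had 737, 794 and 896 normalized counts with NS shRNA and 394, 352 and 322 with shRNA #1. It had 795, 862 and 966 with NS shRNA and 479, 481 and 382 with shRNA #2. The groups were apart in both tables, and the log2 fold changes were -1.18 for shRNA #1 (standard error 0.10, adjusted p = 5.9e-06, limma) and -0.97 for shRNA #2 (standard error 0.11, adjusted p = 2.1e-05, limma). ITGB6, an epithelial partner of ITGAV that activates latent TGF-beta, fell by 1.01 with shRNA #1 and by 1.94 with shRNA #2 (adjusted p = 0.00181 and 0.000957, limma), from means of at most 64.7. ITGB8 (ENSG00000105855.10, chromosome 7 from 20330702 to 20415754, plus strand), another TGF-beta activating partner, had 247, 268 and 306 normalized counts with NS shRNA and 92.3, 73.9 and 97.0 with shRNA #1. Its counts were 267, 291 and 329 with NS shRNA and 307, 305 and 242 with shRNA #2. Only the shRNA #1 libraries were apart from the control. Against NS shRNA this was -1.63 on the log2 scale for shRNA #1 (standard error 0.14, adjusted p = 5.5e-06, limma) and -0.06 for shRNA #2 (adjusted p = 0.703, limma).

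Of the RGD-binding alpha chains, ITGA5, the fibronectin receptor chain that pairs with ITGB1, rose by 0.83 with shRNA #1 (standard error 0.05, adjusted p = 1.0e-06, limma) and by 0.35 with shRNA #2 (standard error 0.06, adjusted p = 0.000338, limma). ITGAV fell by 0.50 with shRNA #1 (standard error 0.08, adjusted p = 0.000306, limma) and had a log2 fold change of -0.09 with shRNA #2 (adjusted p = 0.326, limma). Leaving out the first NS shRNA library brought the latter to -0.18 with an adjusted p of 0.0318 (limma). ITGA5 made up 7.93% ± 0.138 (SD, n = 3) of the alpha chain level with NS shRNA, 11.9% ± 0.0868 with shRNA #1 and 5.91% ± 0.229 with shRNA #2. ITGA2B, the platelet chain, had means of at most 21.5 and fell by 1.36 and 2.06 (adjusted p = 0.0124 and 0.000490, limma). Its means were 7.52 with shRNA #1 and 4.35 with shRNA #2, so it reached the minimum mean of 10 only through the NS shRNA libraries. Its place among the 17 and 14 lower members thus depends on the group where it is high.

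The collagen receptor chains fell or did not pass. ITGA2 fell by 0.44 with shRNA #1 (adjusted p = 0.00407, limma) and had a log2 fold change of 0.02 with shRNA #2 (adjusted p = 0.891, limma). ITGA10, a chain best known from cartilage, fell by 0.94 and 1.05 (adjusted p = 0.000759 and 9.0e-05, limma) from means of 113 and 122. ITGA1 had log2 fold changes of -0.14 with shRNA #1 (adjusted p = 0.25, limma; -0.25 and 0.026 without the first NS shRNA library) and -0.31 with shRNA #2 (adjusted p = 0.0168, limma), the latter lost without the second NS shRNA library (adjusted p = 0.0546) and without the intensity trend (0.0609). The gene PELO lies within ITGA1 on the same strand, so their counts are uncertain.

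Among the chains named for leukocytes, ITGB2 (ENSG00000160255.19, chromosome 21 from 44885953 to 44931989, minus strand) had 351, 330 and 332 normalized counts with NS shRNA and 174, 169 and 124 with shRNA #1. It had 378, 358 and 358 with NS shRNA and 444, 373 and 484 with shRNA #2. The shRNA #1 libraries were clearly low, and 1 shRNA #2 library overlapped the NS shRNA libraries. Log2 fold changes of -1.13 for shRNA #1 (standard error 0.13, adjusted p = 5.3e-05, limma) and 0.24 for shRNA #2 (adjusted p = 0.0635, limma) were fitted. Without the second shRNA #2 library the latter became 0.35 with an adjusted p of 0.00867 (limma). The only tested leukocyte marker, CD14, went from 969 to 218 with shRNA #1 (log2 fold change -2.15, adjusted p = 1.1e-07, limma) and from 1048 to 1120 with shRNA #2 (0.10, adjusted p = 0.356, limma); PTPRC, CD3E and CD2 had at most 8 reads. The part of such cells in the ITGB2 values was not tested. ITGAE did not pass with either hairpin, with log2 fold changes of -0.17 and -0.08 (adjusted p = 0.0774 and 0.40, limma). The former passed without the third NS shRNA library (adjusted p = 0.0366) or the third shRNA #1 library (0.0238). ITGAM, a myeloid chain, had 6.28, 1.96 and 0.923 normalized counts with NS shRNA and 16.05, 12.05 and 25.9 with shRNA #1 (log2 fold change 2.39, adjusted p = 0.00399, limma), and was too low for a test with shRNA #2. The means of ITGAM were 3.06 with NS shRNA and 18.0 with shRNA #1, so it reached the minimum mean of 10 only through the shRNA #1 libraries. Its place among the 7 higher members thus depends on the group where it is high. At these low values the log2 fold change depended on the pseudocount, at 2.86 with 0.1 and 1.53 with 5, and ITGAM fell under the minimum for a test without the first or the third shRNA #1 library. The 10 genes too low in both tables were ITGA4, ITGA8, ITGA9, ITGA11, ITGAD, ITGAL, ITGAX, ITGB7, LAMB4 and LAMC3, none above 9 reads in any library. In a fit without the minimum, 2 of these passed with shRNA #1 and 0 with shRNA #2 (limma). ITGB7, a lymphocyte chain, had 6, 7 and 8 reads with NS shRNA and 2, 3 and 2 with shRNA #1 (adjusted p = 0.0162), and LAMB4 had 0, 0 and 3 against 4, 4 and 4 (adjusted p = 0.0269). At so few reads both calls are uncertain, and these genes were not followed singly through the other alternative fits. For the other 8 no change was detectable at this depth.

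The hairpins were compared directly by edgeR on the reads of all 9 libraries. Of 27 members tested, 10 were higher with shRNA #2 than with shRNA #1 and 9 were lower, where 31.4% of all genes tested were higher, 32.5% lower and 63.9% differed in either direction. With upper quartile factors in place of TMM the split over all genes moved to 26.0% higher and 38.2% lower, and that of the members to 10 higher and 11 lower. The members that were higher with shRNA #2 included ITGB8 by 1.58, ITGB2 by 1.36, LAMA5 by 1.10, ITGB1 by 0.79, ITGA6 by 0.68 and ITGA3 by 0.65 on the log2 scale (adjusted p from 1.2e-07 to 5.2e-06, edgeR). Log2 ratios below 0 included LAMA2 at -2.36, ITGA7 at -1.86, LAMA4 at -1.60 and LAMA1 at -1.53 (adjusted p from 1.7e-06 to 0.000111, edgeR). All 5 laminin alpha genes differed between the hairpins. The log2 ratio of LAMB3 was -0.29 (adjusted p = 0.00305, edgeR) and that of ITGB5 -0.11 (adjusted p = 0.0277, edgeR, lost in 8 alternative fits). That adjusted p ran from 0.0513 to 0.0859 without any 1 of the shRNA #1 libraries or the first or the second shRNA #2 library. For ITGB4 the log2 ratio was -0.0015 (adjusted p = 0.984, edgeR) and for ITGB3 0.21 (adjusted p = 0.131, edgeR), or 0.32 without the third shRNA #2 library (adjusted p = 0.0219). ASAH1 itself was lower with shRNA #2, at a log2 ratio of -0.89 (adjusted p = 7.0e-08, edgeR).

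Adhesion genes outside the families were followed as lists. Of 28 tested genes of the adhesion complex, which couples integrin tails to actin, 6 were higher and 14 lower with shRNA #1, and 10 were higher and 11 lower with shRNA #2 (median log2 fold change -0.14 and 0.05). The shares over all genes tested were 32.8% higher and 33.3% lower with shRNA #1 and 33.5% and 33.4% with shRNA #2, and the shares of the lists in either direction were not tested against 66.1% and 66.9%. The tensins, which bind beta tails, fell with both hairpins: TNS1 had log2 fold changes of -1.85 and -1.66, TNS2 of -1.33 and -1.68, TNS3 of -1.25 and -0.50 and TNS4 of -0.77 and -1.90 with shRNA #1 and shRNA #2 (adjusted p at most 0.000251, limma). Other genes of this list were higher with both hairpins. ZYX rose by 0.60 and 0.43, FERMT2 by 0.25 and 0.24, SRC by 0.27 and 0.22 and PXN by 0.14 and 0.19 (adjusted p at most 0.01044, limma). The talin gene TLN1 had log2 fold changes of 0.14 and 0.04 (adjusted p = 0.0871 and 0.665, limma), and the focal adhesion kinase gene PTK2 fell by 0.16 with shRNA #1 and rose by 0.53 with shRNA #2 (adjusted p = 0.0130 and 1.6e-05, limma). Of the matrix ligands, 4 of 16 tested were higher and 8 lower with shRNA #1, and 3 of 14 were higher and 7 lower with shRNA #2, beside the same shares over all genes. Fibronectin, FN1, the ligand of ITGA5, rose by 0.64 with shRNA #1 and fell by 1.00 with shRNA #2 (adjusted p = 7.4e-05 and 3.4e-06, limma). The collagen IV chain COL4A1 fell by 0.85 and 1.10, and perlecan, HSPG2, by 1.06 and 0.34 (adjusted p at most 0.00545, limma). THBS1 rose by 0.27 and 0.66 (adjusted p = 0.00522 and 9.6e-06, limma). The sparse genes NID2, a laminin-binding nidogen (1.81 with shRNA #1), and VTN, vitronectin (-2.63 and -2.23), had at most 23 reads in any library. NID2 had a mean of 5.02 with NS shRNA, and VTN had means of 2.51 with shRNA #1 and 4.99 with shRNA #2. Each thus reached the minimum mean of 10 only through the group where it is high, and the list counts that include it depend on that group.

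The laminin receptors and hemidesmosome genes that are no integrins gave 2 higher and 4 lower of 6 with shRNA #1 and 1 higher and 3 lower of 6 with shRNA #2, where 66.1% and 66.9% of all genes passed in either direction. Dystroglycan, DAG1, which binds the alpha chain of laminin, fell by 1.08 and 0.97 (adjusted p = 1.5e-05 and 5.1e-06, limma), from mean normalized counts of 8050 to 3815 and of 8700 to 4419. BCAM, a receptor for LAMA5, fell by 0.82 and 0.52 (adjusted p = 7.4e-06 and 9.1e-05, limma). The hemidesmosome collagen COL17A1, a partner of ITGB4, rose by 1.17 with shRNA #1 and had a log2 fold change of -0.20 with shRNA #2 (adjusted p = 4.4e-07 and 0.0442, limma). DST, whose epithelial product links ITGB4 to keratin, rose by 0.68 with shRNA #2 (adjusted p = 4.8e-05, limma). With shRNA #1 its log2 fold change was 0.20 (adjusted p = 0.0432, limma), and these libraries overlapped those of NS shRNA. The counts per gene do not separate the transcripts of DST. Genes of the lists were not followed through the alternative fits.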

How the data were processed

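RNA-seq libraries from MDA-MB-231 cells (3 per group) were processed by the authors, who used Trimmomatic 0.36 for trimming, STAR 2.7.1a for alignment to hg38, htseq-count on UCSC genes (reverse strand) for counting and DESeq2 1.28 for scaling. Another methods paragraph names Bowtie2, RSEM and edgeR, and the labels describe both oligo-dT selection and ribosomal RNA depletion. The deposited signal values are normalized counts, the reads divided by a size factor set separately in each table. The authors' fold changes and p-values were not used. All deposited values gave whole reads within 0.05, and the NS shRNA reads differed between the tables for 0 genes. No column of per-sample values went unmatched, and 28 symbols turned into dates were restored from the other table.

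Each hairpin was compared with NS shRNA by a two-sided limma 3.58.1 test of log2(value + 1) with an intensity trend. Genes needed a mean of at least 10, and p-values were adjusted by Benjamini-Hochberg (threshold 0.05). Low genes are understated on this scale. The hairpins were compared by edgeR 4.0.16 (quasi-likelihood, TMM) on the reads of 9 libraries. The results were recomputed with a pseudocount of 0.1 or 5, without the filter or with a minimum of 50, without the trend, with upper quartile scaling, edgeR and DESeq2 1.42.0 on the reads, 1 fit of 9 libraries, the replicate block, the 6 knockdown libraries alone and leaving out each library. Scripts were tested on simulated data. Members with a mean of at least 100 and a log2 fold change of at least 1 in size that passed in either comparison, and the member with the highest level in each class, have values per library; LAMA2 and the genes given by group means were added after their values were seen. 1 member and 1 marker gene are not reported here, although counts and medians over the members include that member. The genes and lists were chosen with earlier results of these data known. Positions come from GENCODE v44 on hg38 and promoters from RefSeq (GRCh38.p14).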

Additional observations from a re-analysis of the deposited data

Results flagged for a closer look

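4 members had opposite log2 fold changes in the hairpins against NS shRNA, each past the threshold in both comparisons. A difference between the hairpins past the threshold by edgeR was also required. The adjusted p-values of that difference are therefore part of the selection and no further support. On the log2 scale, shRNA #2 minus shRNA #1 came to 0.68 for ITGA6 (adjusted p = 2.6e-06), -1.53 for LAMA1 (9.3e-06), -2.36 for LAMA2 (1.7e-06) and 0.40 for LAMB1 (1.5e-05). The opposite sign rests on a call that some alternative fits lost for ITGA6 and LAMB1 with shRNA #1 and for LAMA2 with shRNA #2. For LAMA1 both calls held in every fit that was run.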

How the results depend on the processing

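Of 82 results for single genes, 61 kept their direction and their side of the threshold under every alternative. The number of members lower with shRNA #1 (17) ran from 14 to 18 and with shRNA #2 (14) from 10 to 14; those higher (7 and 7) ran from 6 to 8 and from 7 to 8. Between the hairpins 10 higher ran from 10 to 11 and 9 lower from 8 to 11. After subtraction of the group means, same-numbered libraries of different groups had correlations from -0.30 to 0.20. Libraries with different numbers were not compared, so these values cannot decide whether the numbers pair the samples. With the replicate number as a block, 14 members were lower with shRNA #1 and 13 with shRNA #2, and 5 gene calls changed. Signs changed for log2 fold changes near 0 that passed no test. ITGA2 with shRNA #2 was -0.0273 under upper quartile rescaling. Between the hairpins ITGB4 was 0.0102 without a filter, 0.0041 with DESeq2 and 0.0044 with the 6 knockdown libraries. Without 1 library, ITGA2 with shRNA #2 ran from -0.0723 to 0.12, ITGB8 with shRNA #2 from -0.128 to 0.0562, LAMC1 with shRNA #1 from -0.0134 to 0.0855 and ITGB4 between the hairpins from -0.0585 to 0.033. The cause was not tested.

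Under upper quartile rescaling the median log2 fold change of all genes was 0.01, -0.03 and -0.08 in the 3 comparisons. Depth limits the 10 genes with at most 9 reads.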
